A study of Mus musculus with 4 samples.

Results

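The genes described here are 9 regulators of the epithelial cell state in the mouse: the transcription factor genes Grhl1, Grhl2, Grhl3, Ovol1, Ovol2, Elf3 and Ehf and the splicing factor genes Esrp1 and Esrp2. They were chosen by name, with earlier results of these data known. Of 45037 probe sets and 18193 named genes on the array, 17 probe sets carried one of these symbols. RNA came from mouse embryonic fibroblasts (MEFs) in the course of reprogramming toward pluripotency. Cells were fixed, permeabilized, stained and sorted into 4 fractions, given here in gate order. The first was Oct4-negative, and the second, Oct4+Klf4-negative, stained for Oct4 without Klf4. Both of the later ones stained for Oct4 and Klf4, the third without EpCAM (Oct4+Klf4+EpCAM-negative) and the fourth with it (Oct4+Klf4+EpCAM+). Oct4 (gene Pou5f1) and Klf4 are reprogramming factors, and EpCAM is an adhesion protein of the epithelial surface. Each fraction was read on 1 array, so differences are given without a replicate check or a test, and precision is limited by that number of arrays. The labels give no strain, age, factor cocktail, delivery or day, and do not say whether all 4 fractions came from 1 culture.

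As background, grainyhead-like (Grhl) factors bind DNA and activate genes of epithelial adhesion and barrier, among them Cdh1, which encodes E-cadherin. Ovol proteins are zinc finger repressors that hold down Zeb1 and other mesenchymal genes in epithelia, and Zeb factors in turn repress epithelial genes. Esrp1 and Esrp2 bind RNA and steer exon choice toward epithelial isoforms, the classical case being Fgfr2, while Elf3 and Ehf are Ets-domain factors found mainly in epithelia. Fibroblasts pass through a mesenchymal to epithelial change early in reprogramming.

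Levels are log2 values of probe sets, and they are compared here across fractions within a gene, not between genes. The size rule for a call, higher or lower, was a 2-fold difference or more with the brighter level at or above a floor of 4.53, the median of all values. A background ceiling of 2.94 was taken from 27 bacterial control sets that were below the floor throughout, as their highest reading. A fold whose dimmer level lay at or below that ceiling was computed against it and is given as "at least". In bulk RNA a higher share of expressing cells and more RNA per expressing cell cannot be told apart. The transcripts of the sorted proteins came first. Pou5f1 had levels of 7.59, 11.48, 11.66 and 11.70 in gate order. The brighter probe set of Epcam, which represents it below, had 4.63, 5.20, 6.54 and 9.52. The other Epcam probe set had 2.44, 2.58, 3.10 and 5.45, and was called higher at the EpCAM gate but not at the Klf4 gate. The brighter probe set of Klf4 had 7.32, 6.24, 10.20 and 10.60, while its other probe set ran the opposite way at the Klf4 gate, with 6.95, 5.69, 2.67 and 3.20. Array medians lay between 4.49 and 4.55. Controls for RNA integrity, the 3′ and 5′ probe sets of Gapdh, differed by 1.04, 1.30, 1.04 and 0.97 on the log2 scale in gate order. Those of beta-actin differed by -0.06, -0.05, -0.06 and -0.07. The part of RNA integrity in the results was not tested.

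At the EpCAM gate 6 of the 9 regulators were called higher in the Oct4+Klf4+EpCAM+ array than in its Oct4+Klf4+EpCAM-negative counterpart, and 0 were called lower. These were Esrp1 (6.90-fold), Grhl2 (6.17-fold), Ovol1 (4.27-fold), Elf3 (3.83-fold), Grhl3 (3.14-fold) and Grhl1 (2.97-fold). Over the array, 1.95% of the 18193 named genes were called higher in that comparison and 1.12% lower. Of the 11428 genes that reached the floor in any fraction 3.11% were called higher. Because the 9 genes were chosen with earlier results known, such shares are given as a scale and not as a test. At the Klf4 gate 3 regulators, Grhl1, Esrp1 and Grhl2, were called higher and 0 lower, where 5.30% of all named genes were called higher and 4.32% lower (8.44% higher among genes reaching the floor). At the Oct4 gate 0 of the 9 were called in either direction, where 2.25% of named genes were called higher and 3.04% lower. Of the 9 genes, 7 reached the floor in at least 1 fraction, and Ovol2 and Ehf did not. Grhl3, Elf3 and the brighter probe set of Ovol1 reached the floor in the Oct4+Klf4+EpCAM+ array and in no other, so a call for these 3 had to come from a comparison with that array.

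**Figure D1:**
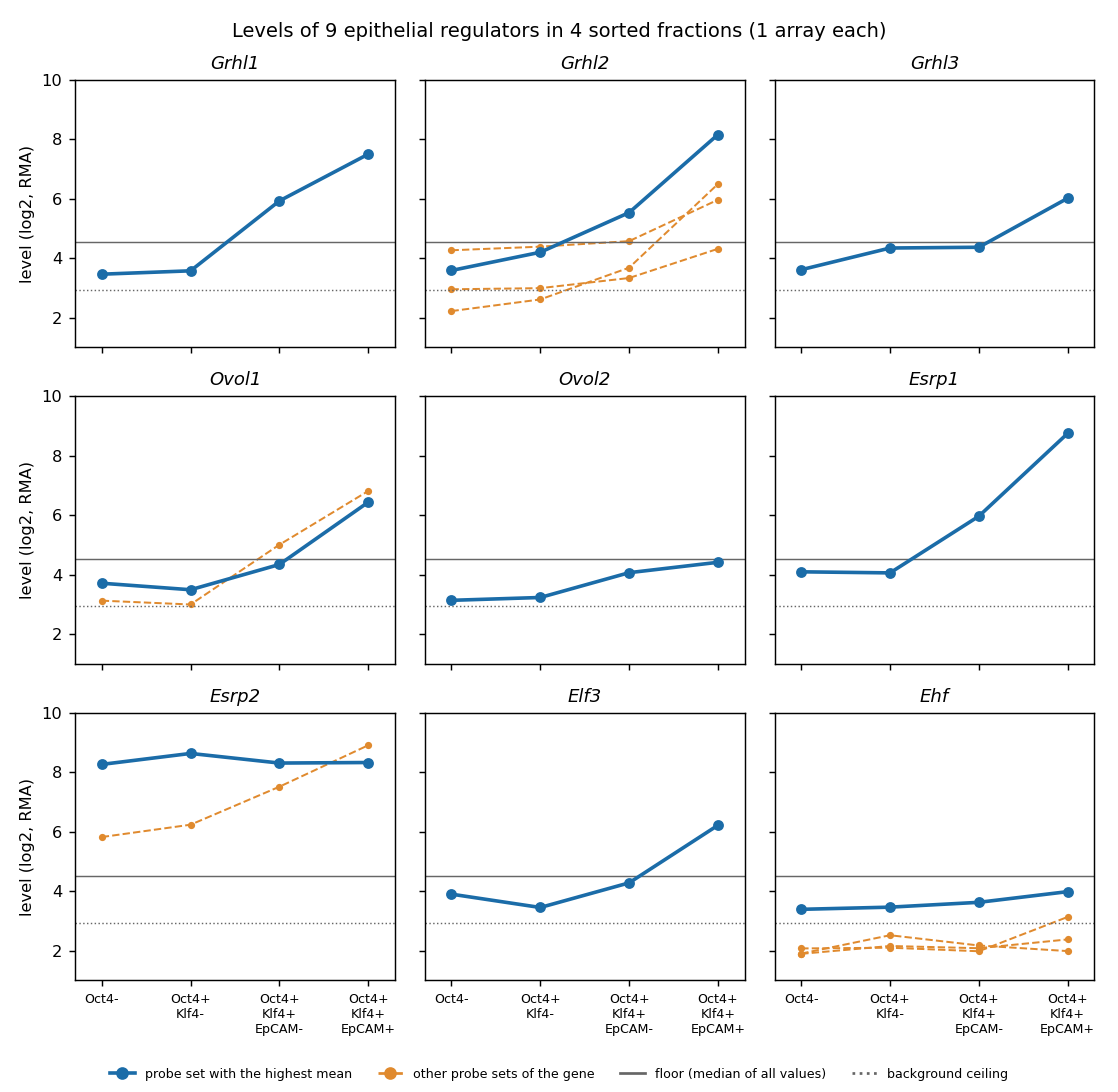
Log2 level (vertical axis) of every probe set of the 9 genes in the 4 fractions in gate order, 1 array each. Blue lines join the probe set with the highest mean, orange dashed lines the other probe sets, and horizontal lines mark the floor of 4.53 and the background ceiling of 2.94. By the blue lines, Grhl1, Grhl2 and Esrp1 climb over the last 2 gates, and Grhl3, Ovol1 and Elf3 mainly over the last. The other probe set of Ovol1 climbs over the last 2 gates, and the 2 probe sets of Esrp2 differ in course.

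The 3 grainyhead-like genes had different courses. Grhl1 had levels of 3.46, 3.57, 5.92 and 7.50 in gate order. Its larger difference was at the Klf4 gate, where the Oct4+Klf4+EpCAM-negative array was 5.10-fold above the Oct4+Klf4-negative array, against 2.97-fold at the EpCAM gate. The Klf4 gate held 58.2% of the log2 difference between the ends of the series. Grhl2, the family member best known for maintaining epithelial junctions, had levels of 3.58, 4.20, 5.53 and 8.16, with folds of 2.52 at the Klf4 gate and 6.17 at the EpCAM gate. For Grhl2 the EpCAM gate held 57.4% of the difference between the ends. Grhl3, known for epidermal barrier formation and neural tube closure, had levels of 3.61, 4.34, 4.37 and 6.01. Its levels on both sides of the Klf4 gate were alike, with a log2 difference of 0.03, and the EpCAM gate held 68.6% of its difference between the ends. Its log2 difference at the Oct4 gate, 0.73, fell short of the size rule. Between the ends of the series, Oct4+Klf4+EpCAM+ over Oct4-negative, the folds were 23.8 for Grhl2, 16.4 for Grhl1 and 5.30 for Grhl3. Of all named genes, 7.46% were called higher and 6.77% lower between the ends, and of the 9 regulators 6 were called higher, the same 6 as at the EpCAM gate.

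The 4 probe sets of Grhl2 each had their highest level in the Oct4+Klf4+EpCAM+ array. Beside the brightest one, they had log2 differences at the EpCAM gate of 2.81, 1.39 and 0.98. The last of these belonged to a probe set below the floor on each array. At the Klf4 gate the same 3 had log2 differences of 1.07, 0.19 and 0.34. The 4 probe sets of Grhl2 thus spanned 0.98 to 2.81 at the EpCAM gate and 0.19 to 1.33 at the Klf4 gate.

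Ovol1 had levels of 3.71, 3.49, 4.34 and 6.44 by its brighter probe set and of 3.13, 2.997, 5.01 and 6.81 by the other. Both put Ovol1 higher at the EpCAM gate, 4.27-fold and 3.50-fold. At the Klf4 gate the second probe set was 4.03-fold higher and passed the size rule, whereas the first, with a fold of 1.80, did not. The means of the 2 probe sets over the arrays were nearly equal, so the count of 3 regulators at the Klf4 gate rests on which of them stands for Ovol1. Ovol2, its paralog, had levels of 3.14, 3.23, 4.07 and 4.42, all above the background ceiling and below the floor. Its log2 difference between the ends was 1.28, with 0.83 of it at the Klf4 gate.

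Among the splicing factors, Esrp1 had levels of 4.10, 4.06, 5.97 and 8.75. It was 3.75-fold higher at the Klf4 gate, 6.90-fold higher at the EpCAM gate and 25.2-fold higher between the ends, with the fractions on both sides of the Oct4 gate alike (log2 difference -0.04). The probe sets of Esrp2 disagreed. The brighter one, whose name marks probes that can read several transcripts, had levels of 8.27, 8.64, 8.31 and 8.33, a range of 0.37. The other, without that mark, had 5.82, 6.24, 7.52 and 8.91. By this second probe set Esrp2 was 2.42-fold higher at the Klf4 gate, 2.63-fold higher at the EpCAM gate and 8.49-fold higher between the ends. Which of them reads Esrp2 was not tested. Both probe sets of Esrp2 were above the floor on every array, the Oct4-negative one included, which held for no other of the 9 genes.

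The Ets-domain gene Elf3 had levels of 3.90, 3.45, 4.28 and 6.22. Its fold was 3.83 at the EpCAM gate and 1.78 at the Klf4 gate, and the EpCAM gate held 83.6% of its difference between the ends, the largest such share among the 6 genes called there. Ehf, the closest relative of Elf3 in the set, had levels of 3.39, 3.46, 3.63 and 3.99 by its brightest probe set and was not called at any gate. Another 2 of its 4 probe sets stayed at or below the background ceiling on every array. The fourth had levels of 2.08, 2.10, 1.98 and 3.14, above the ceiling in the Oct4+Klf4+EpCAM+ array alone.

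**Figure D2:**
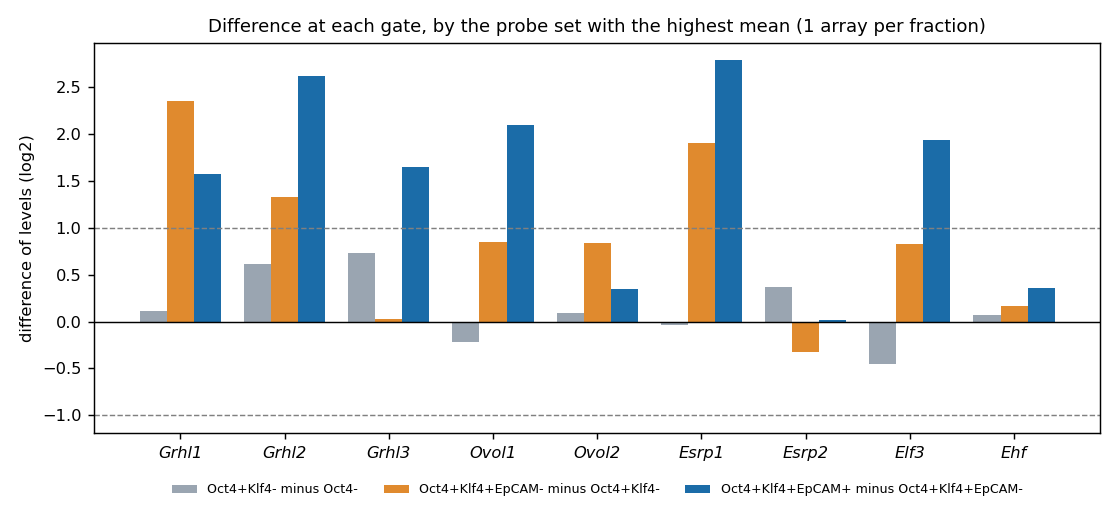
Log2 difference of each gene (vertical axis) at the Oct4 gate (grey), the Klf4 gate (orange) and the EpCAM gate (blue), later fraction minus earlier, 1 array per fraction. Dashed lines mark a 2-fold difference. Grhl1 has its tallest bar at the Klf4 gate (2.35), and Esrp1 (2.79) and Grhl2 (2.62) have theirs at the EpCAM gate.

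Over all 9 genes, those below the floor included, the median log2 difference was 0.10 at the Oct4 gate, 0.83 at the Klf4 gate and 1.65 at the EpCAM gate, and 2.41 between the ends. Over all named genes these medians lay between 0 and 0.03. All 9 differences at the EpCAM gate were above 0, from 0.02 for Esrp2 to 2.79 for Esrp1. Ranked by that difference among the 11428 genes reaching the floor, Esrp1 held place 15, Grhl2 place 21, Ovol1 place 72, Elf3 place 88, Grhl3 place 139 and Grhl1 place 154. At the Klf4 gate the ranks were 277 for Grhl1, 406 for Esrp1 and 694 for Grhl2. The Klf4 and EpCAM gates share the Oct4+Klf4+EpCAM-negative array, and their differences are given side by side for that reason without a relation. Grhl1, Grhl2 and Esrp1 were called higher at both, as were 0.792% of all named genes. With the mean of its 4 probe sets, Grhl2 had a log2 difference of 0.73 at the Klf4 gate and was not called there. A positive difference of any size at each of the 3 gates was found for 5 of the 9 genes, Grhl1, Grhl2, Grhl3, Ovol2 and Ehf, and for 11.0% of all named genes.

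**Figure D3:**
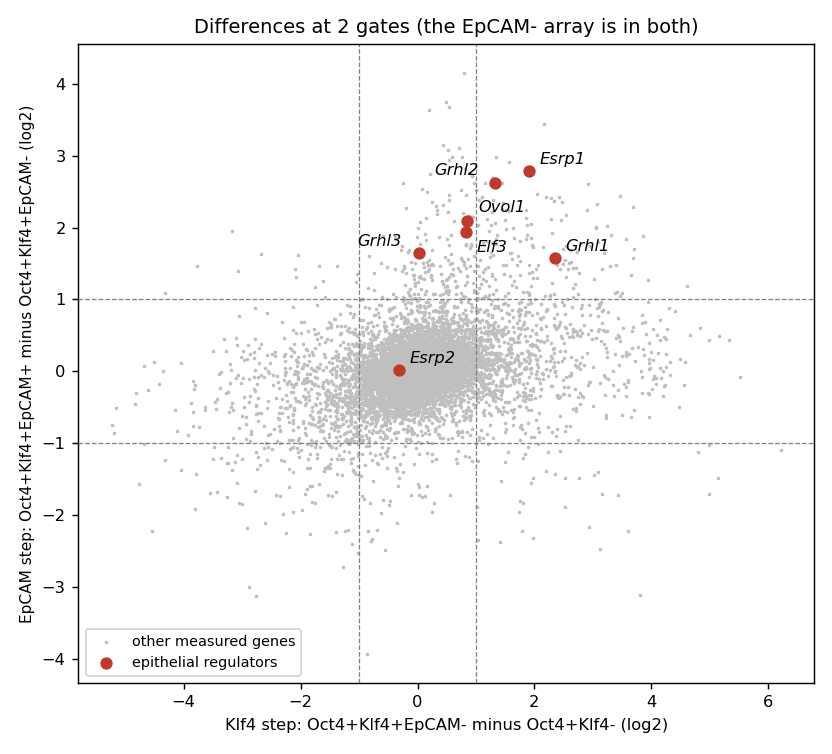
Each point is 1 of the 11428 genes reaching the floor, with its log2 difference at the Klf4 gate (horizontal) and at the EpCAM gate (vertical), 1 array per fraction. Red points are the 7 regulators that reached the floor, and dashed lines mark 2-fold. Esrp2, by its brighter probe set, sits near the centre, at -0.32 and 0.02, and the other 6 lie above the upper 2-fold line.

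The course of each gene was set against all others by the distance between log2 profiles over the 4 fractions, each centred on its own mean, so that a distance of 0 means the same differences at each gate. With 4 points a short distance can arise in many genes, and it is given as a description. Some of the genes named, such as Aoc1 (2.38 and 2.43) and Elf5 (2.41 and 2.25), had levels below the background ceiling in the first 2 fractions, where their course is not resolved. Among 11427 candidates the gene nearest to Grhl2 was Epcam, the transcript of the sorted protein, at a distance of 0.30. Nearest to Grhl1 were the amine oxidase gene Aoc1 (0.07), the transmembrane protein gene Tmem79 (0.19) and Tfap2c (0.24), a transcription factor gene of trophoblast and epithelia. Nearest to Esrp1 were the keratin gene Krt17 (0.24), Klk11 (0.28) and Cdcp1 (0.29). Krt17 was also among the 3 nearest to Grhl2 (0.42), behind Tnfrsf13c (0.41). Nearest to Ovol1 were Krt84, another keratin gene (0.08), and Elf5 (0.16), an Ets-domain factor gene of trophoblast and mammary epithelium. Nearest to Elf3 were the epidermal lipoxygenase gene Aloxe3 (0.20) and the keratin gene Krt80 (0.21). Nearest to Grhl3 were Dnmt3b (0.24), a DNA methyltransferase gene with levels of 5.26, 6.19, 5.91 and 7.59, and Ttc22 (0.25). Also among the 3 nearest were Tmtc1 for Grhl3 (0.36), Wif1 for Ovol1 (0.22) and Bnipl for Elf3 (0.24). Among the regulators themselves, Ovol1 and Elf3 were closest (0.29), then Grhl2 and Esrp1 (0.58), while Grhl1 and Grhl3, of 1 family, were 2.03 apart. Each gene was represented by 1 probe set in these distances. For Ovol1 the other probe set, of nearly equal mean, had a larger log2 difference at the Klf4 gate, 2.01 against 0.85. Its distances were not computed, so the neighbours given for Ovol1, Elf3 among them, hold for the brighter probe set only.

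Genes known as targets of grainyhead-like factors differed in the gate at which they were called. Of 13 such genes on the array, among which Esrp1 and Ovol2 are themselves regulators of the set and Epcam is the sorted protein, 8 were called higher at the EpCAM gate, 6 at the Klf4 gate and 0 at the Oct4 gate, and 0 were called lower. Their median log2 difference over all 13 was 2.01 at the EpCAM gate and 0.93 at the Klf4 gate. Rab25, a small GTPase of apical recycling, had levels of 3.83, 4.02, 4.81 and 8.95 and was 17.7-fold higher at the EpCAM gate. Cldn4, a tight junction claudin, had levels of 2.16, 2.27, 2.80 and 5.74 and was at least 6.96-fold higher there. Cdh1 had levels of 3.39, 4.40, 7.65 and 9.66, with a fold of 9.49 at the Klf4 gate and 4.04 at the EpCAM gate. Spint1, a membrane inhibitor of serine proteases, was 4.10-fold higher at the EpCAM gate, and Tgm1, the transglutaminase of the epidermal envelope, 4.44-fold. Cdh1, Spint1, St14, Esrp1 and, by its brighter probe set only, Epcam were called at both gates. Grhl1 and, by its brightest probe set only, Grhl2 were also called at both gates. Cldn3, another claudin gene, was 8.83-fold higher at the Klf4 gate and not called at the EpCAM gate, and Arhgef19, a guanine nucleotide exchange factor gene, was above the floor on every array and called at none. Prss8, Dsg1a and Ovol2 of that list lay below the floor throughout.

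Mesenchymal genes that Grhl2 and Ovol factors are known to oppose were called lower in part at the later gates. Of 9, all of which reached the floor, 6 were called lower at the EpCAM gate and 0 higher (median log2 difference -1.73), and at the Klf4 gate 3 were called lower, Zeb2, Twist1 and Cdh2. Zeb1, the repressor of epithelial genes, had levels of 8.63, 7.99, 7.12 and 3.20 and was 15.2-fold lower at the EpCAM gate. A second Zeb1 probe set that reached the floor had levels of 6.90, 6.42, 4.99 and 3.02, with calls of lower at both the Klf4 gate (log2 difference -1.42) and the EpCAM gate (-1.97). Zeb2 had levels of 6.21, 8.13, 5.24 and 2.25 by its brightest probe set. By that probe set it was called higher at the Oct4 gate, 3.78-fold, and lower at the 2 later gates, 7.39-fold and at least 4.93-fold. The other Zeb2 probe sets that reached the floor peaked at 6.93 and 6.24 in the Oct4+Klf4-negative array. They were called in the same directions at the Oct4 and Klf4 gates but not at the EpCAM gate, where both sides lay below the floor. The brighter Zeb1 probe set had log2 differences of -3.92 at the EpCAM gate and -0.86 at the Klf4 gate, so the split between the gates varied with the probe set. Snai1, another repressor of Cdh1, had levels of 5.74, 2.97, 3.20 and 3.29 and was 6.83-fold lower at the Oct4 gate, where 0 of the 9 regulators were called. Snai2 and Twist1 were 3.32-fold and 2.57-fold lower at the EpCAM gate. Snai1, Twist2 and Tgfbr2 were called at neither of the later gates.

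**Figure D4:**
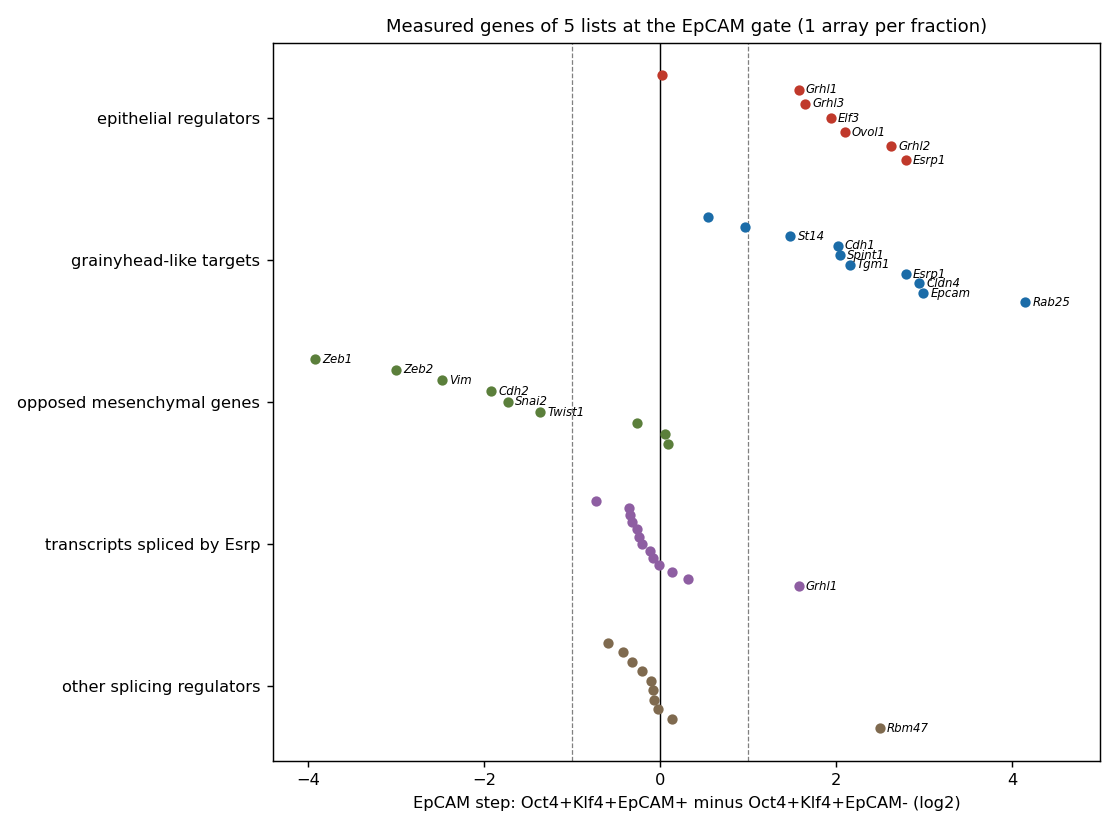
Log2 difference at the EpCAM gate (horizontal axis), Oct4+Klf4+EpCAM+ minus Oct4+Klf4+EpCAM-negative, of each measured gene of 5 lists, 1 array per fraction. Each point is 1 gene, and names are given at or beyond the dashed 2-fold lines, without the correction for the background ceiling. The 6 regulators called higher lie between 1.57 and 2.79, and the opposed mesenchymal genes reach -3.92 with Zeb1.

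Transcripts that Esrp proteins are known to splice were read by their total level. Of 13 genes, 1 was called higher at the EpCAM gate, Grhl1, whose own transcript belongs to that list, and 0 were called lower (median log2 difference -0.21), beside 1.95% and 1.12% of all named genes. Fgfr2 had levels of 6.87, 4.69, 3.56 and 2.83 and was called lower at the Oct4 gate, 4.52-fold, and at the Klf4 gate, 2.19-fold. Cd44, whose variable exons are included in epithelia, had levels of 9.94, 9.23, 9.93 and 9.68, and Ctnnd1, which encodes p120 catenin, had 8.17, 7.72, 8.54 and 8.45. The levels used are of 1 probe set for each gene and do not measure exon choice.

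Markers of epithelial and of other cell types were read on the same arrays. All 7 simple epithelial markers, Epcam among them, were called higher at the EpCAM gate, and their summed linear level was 786, 294, 1763 and 6292 in gate order. Krt8 and Krt19 had the highest levels of that list in the Oct4+Klf4+EpCAM+ array, 11.34 and 10.85. Krt18 and Krt19 were called lower at the Oct4 gate. Between the ends 5 of the 7 were called higher, without Krt7 (log2 difference -0.09) and Krt18 (0.11). Of 8 keratinocyte markers on the array, Krt14 and Krt1 were called higher at the Klf4 and EpCAM gates. Summed levels for the list were 213, 209, 332 and 798, the rise coming through Krt14 and Krt1. Between the ends, the median log2 difference of the keratinocyte markers that reached the floor was -0.02. Trp63, the epidermal regulator p63, had levels of 4.05, 4.26, 3.56 and 3.57. Of 6 trophoblast markers, Elf5 and Tfap2c were called higher at the EpCAM gate, and Hand1, with levels of 4.69, 4.95, 7.68 and 8.21, was called higher at the Klf4 gate. The list had summed levels of 87.7, 92.3, 362 and 619, to which Hand1 gave the most in the last 2 fractions, while Cdx2 stayed at or below the background ceiling on every array. The 6 fibroblast markers on the array had summed levels of 6095, 3437, 349 and 168, and each was above the floor in the Oct4-negative array. At the Oct4 gate Col1a1, Col1a2 and Pdgfrb were called lower, but Thy1 and Postn were called higher, 2.69-fold and 7.22-fold. All 6 were called lower at the Klf4 gate. The 5 leukocyte markers summed to 261, 89.7, 133 and 143, with Adgre1 below the ceiling throughout, and the 5 endothelial markers to 37.7, 209, 731 and 611, through Tek and Cldn5, with Kdr below the ceiling throughout and Pecam1 and Cdh5 below the floor. The 7 pluripotency markers summed to 50.9, 48.7, 213 and 522, through Sall4 and Lin28a, with Nanog below the ceiling on every array. The simple epithelial, keratinocyte, trophoblast and pluripotency sums were highest in the Oct4+Klf4+EpCAM+ array, as were most of the regulators, and the fibroblast sum was lowest there. The part of such cells in the levels of the regulators was not tested.

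Promoter sequence was read for the regulators, most of which were higher in the same fractions, to show which binding motifs lie at their starts. RefSeq windows (build GRCm38.p6, 250 bases before to 50 after the start) were found for Grhl1, which has 2, and for Grhl3, Ovol2 and Elf3. Grhl2, Ovol1, Esrp1, Esrp2 and Ehf are named only. Both strands were searched for the grainyhead-like motif AACCNGTT, the E-box CAGGTG that Zeb and Snail factors bind, the Ovol motif CCGTTA and the Klf motif GGGNGTG. The grainyhead-like and Ovol motifs can share bases. The windows below are those with a match, with each match in capitals. Grhl3 lies on chromosome 4 (chr4:135573583-135573882, minus strand), Elf3 on chromosome 1 (chr1:135258423-135258722, minus strand) and Ovol2 on chromosome 2 (chr2:144331313-144331612, minus strand).
Grhl3: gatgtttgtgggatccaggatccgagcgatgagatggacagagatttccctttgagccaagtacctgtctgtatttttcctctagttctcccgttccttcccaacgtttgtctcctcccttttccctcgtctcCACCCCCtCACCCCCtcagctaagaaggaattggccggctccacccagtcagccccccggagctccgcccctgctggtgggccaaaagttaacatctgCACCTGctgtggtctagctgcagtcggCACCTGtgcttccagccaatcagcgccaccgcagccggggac
Elf3: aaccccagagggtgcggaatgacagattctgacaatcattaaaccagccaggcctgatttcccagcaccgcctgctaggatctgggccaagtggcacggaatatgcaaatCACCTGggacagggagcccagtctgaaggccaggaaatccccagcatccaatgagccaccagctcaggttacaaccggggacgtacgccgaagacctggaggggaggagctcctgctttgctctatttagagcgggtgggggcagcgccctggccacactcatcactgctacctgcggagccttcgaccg
Ovol2: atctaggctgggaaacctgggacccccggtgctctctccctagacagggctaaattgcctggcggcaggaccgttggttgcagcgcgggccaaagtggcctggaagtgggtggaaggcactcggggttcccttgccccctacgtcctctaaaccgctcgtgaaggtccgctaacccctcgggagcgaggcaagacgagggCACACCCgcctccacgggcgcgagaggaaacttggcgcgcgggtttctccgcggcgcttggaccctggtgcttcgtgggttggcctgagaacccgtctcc
In the Grhl3 window the capitals mark 2 Klf motifs and 2 E-boxes, all on the reverse strand of the window, the E-boxes starting at positions -19 and 9, counted from the first transcribed base as position 1 and with no position 0. In the Elf3 window they mark 1 E-box, at position -140, and in the Ovol2 window 1 Klf motif, at position -50. The E-box occurred in 20.2% and the Klf motif in 29.2% of all 32851 windows in the table, so such matches are common. The grainyhead-like and Ovol motifs, held by 2.09% and 2.76% of all windows, had no match in these 5 windows, and both Grhl1 windows held none of the 4 motifs. A match is a run of letters and not a measured site.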

How the data were processed

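Total RNA of fixed, stained and sorted cells was recovered with the RecoverAll kit and amplified with the Ovation Pico WTA kit, per the labels' protocols. The authors deposited 1 log2 level for each probe set and array, computed with RMA, per the submitters' processing notes, which give no version. RMA quantile-normalizes arrays, which can hide a global shift, and amplification of fixed RNA can alter levels by transcript integrity.

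Probe sets were named through the platform annotation: 34945 had 1 symbol, 932 had several and 9160 were not listed. Of the first, 34741 matched a RefSeq gene (GRCm38.p6, used for names). The probe set with the highest mean represented a gene. With 1 array per fraction no test was run. The size rule, floor and ceiling are those given above, and simulated data were used to try the rule (Python 3.11.15, pandas 2.3.3). Their noise was set by the scatter between probe sets of a gene, and changes were planted in genes whose mean level reached the floor. The simulated data hold no variation between cultures, sorts or amplifications. Alternatives changed the floor, the probe set, the centring and the fold.

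The genes and lists were chosen with earlier results of these data known. Named genes were all 9 regulators, members of the fixed lists, the 3 sorted factors, and up to 3 nearest neighbours of each regulator that reached the floor and varied at least 2-fold.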

Additional observations from a re-analysis of the deposited data

How the results depend on the processing

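With a higher floor (6.87, the upper quartile of all values), the regulators called higher numbered 0 at the Klf4 gate, 3 at the EpCAM gate and 3 over the whole series, in both cases Grhl1, Grhl2 and Esrp1, since fewer genes reach that floor. Under each of the other 6 alternatives (no floor, the mean of all probe sets, the brightest probe set without the mark of shared transcripts, centred arrays, and size rules of 1.5-fold and 3-fold), those counts were within 1.5 times those reported, and 0 regulators were called lower in any comparison. The genes behind the counts differed: with the mean of all probe sets Ovol1 (1.43) was called at the Klf4 gate in place of Grhl2 (0.73), and at 3-fold Grhl2 was not called at the Klf4 gate and Grhl1 not at the EpCAM gate. Of 108 recomputed differences of single regulators, 90 moved by less than the typical scatter of probe sets within a gene. That scatter had a median SD of 0.12 to 0.18. The other 18 moved by more, and 0 called ones changed sign. Most of the 90 had little or no room to move. A change of probe set cannot alter the 5 regulators with 1 probe set, and centring left all 36 of its differences within that scatter. With the mean of all probe sets 12 differences moved, and with the unmarked probe set 6. Of the 18, 6 belonged to Esrp2, 5 to Ehf and the rest to Grhl2 and Ovol1, which were called higher at the EpCAM gate. With the mean of its probe sets, Grhl2 had a log2 difference of 1.95 at the EpCAM gate in place of 2.62. Between the ends it had 2.98 in place of 4.57, and it stayed called in both comparisons. Among uncalled differences at the Klf4 gate, that of Esrp2 turned from -0.32 to 0.48 with the mean of its probe sets and to 1.28, a call, with the unmarked one, and that of Ehf from 0.16 to -0.09 and -0.12. No paired analysis was possible because each fraction has 1 array. The arrays hold no variation between cultures or sorts, and levels near the ceiling are limited by background.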

Other observations

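Relatives and functional neighbours of the regulators were looked up in the same way. Of 7 further Elf and Ets-domain genes, Elf5 had levels of 2.41, 2.25, 3.20 and 5.34 in gate order and was called higher at the EpCAM gate (4.41-fold). Elf1, a broadly expressed relative of Elf3, had levels of 5.77, 4.69, 6.42 and 7.26 and was 3.31-fold higher at the Klf4 gate. Etv4 and Etv5, Ets-domain factors induced by growth factor signalling, were 3.11-fold and 2.97-fold higher at the Klf4 gate and had log2 differences of -0.13 and 0.04 at the EpCAM gate. Of 10 other epithelial transcription factors on the array, Tfap2a and Sox9 were called lower at the Oct4 gate. Between the ends Tfap2c was called higher and Sox9 lower. At the Klf4 gate Tfap2a, Tfap2c and Gata3 were called higher, and at the EpCAM gate Tfap2c alone. Tfap2c was 6.15-fold higher at the Klf4 gate and 2.87-fold higher at the EpCAM gate. Klf5 had levels of 7.03, 6.24, 6.44 and 6.77 and was called at neither gate. Foxa1 and Foxa2 stayed below the background ceiling on every array.

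Of 10 other splicing regulators of the epithelial to mesenchymal switch, Rbm47, an RNA-binding protein of epithelia, had levels of 4.19, 2.15, 2.32 and 4.81, and was at least 3.65-fold higher at the EpCAM gate, the 1 call of that list there. Ptbp2, a splicing repressor of neural exons, was 2.75-fold lower at the Klf4 gate. Rbfox2, Qk and Mbnl1 were not called at any gate. Tfcp2, Ubp1 and Lmo4, relatives or partners of the grainyhead family, were not called either, with levels of 6.51, 6.72, 6.43 and 5.73 for Tfcp2.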
